A study of Sus scrofa with 6 samples.

Results

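FAM13A, with its relatives FAM13B and FAM13C, was followed through the longissimus dorsi (LD) muscle of 6 Laiwu pigs, a Chinese breed. FAM13A was picked because its level was much lower in pigs with high intramuscular fat (IMF), and FAM13B and FAM13C were added as the rest of its family, so the difference of FAM13A between the groups is described here without a test. The family was found by gene name and comprised 3 of 31908 Ensembl genes and 34 of the 83119 transcripts in the deposited table, namely 22 of FAM13A, 7 of FAM13B and 5 of FAM13C. The S-H group held 3 pigs with extremely high IMF (LW63, LW70 and LW119), and the S-L group held 3 pigs with extremely low IMF (LW82, LW88 and LW90). All were castrated males of 1 breed from 1 breeding company, none was treated, and their age is not given in the sources used here. RNA of the LD muscle at the thoracolumbar junction was depleted of ribosomal RNA and sequenced with strand information, with 1 library per pig. Each value is given as an FPKM, fragments scaled to transcript length and to library size, and a gene level is the sum over the transcripts of the gene. The table holds no read counts, so the depth of each value is not known. In a piece of muscle, fewer cells of a type and less RNA per cell cannot be told apart.

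The FAM13 genes encode large proteins with coiled-coil stretches. FAM13A is best known from human genetics, where variants at the gene go with lung function and with the distribution of body fat, and work in cells has tied it to the turnover of beta-catenin, to the stability of the insulin receptor substrate IRS1 in fat cells and to the oxidation of fatty acids. Shorter FAM13A transcripts are known beside the full-length form.

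FAM13A (ENSSSCG00000026196, chromosome 8, 130021641 to 130327729 on Sscrofa11.1) was several times lower in S-H than in S-L. Its level was 4.20 FPKM in LW63, 1.86 FPKM in LW70 and 6.48 FPKM in LW119, against 18.3 FPKM in LW82, 15.1 FPKM in LW88 and 38.9 FPKM in LW90. The groups did not overlap, as for the 1.7% of all tested genes that were lower throughout S-H, with LW70 the lowest of all pigs and LW90 the highest, and the lowest S-L pig lay 2.33-fold above the highest S-H pig. The mean was 4.18 ± 2.31 FPKM (SD, n = 3) among S-H pigs against 24.1 ± 12.9 FPKM (SD, n = 3) among S-L pigs, a 5.77-fold higher mean in S-L. On the Ensembl transcripts alone the mean was 2.07-fold higher in S-L and the groups overlapped, from 0.614 to 1.85 FPKM in S-H and from 1.65 to 3.97 FPKM in S-L. The difference of the mean log2(FPKM + 0.1), S-H minus S-L, was -2.54. Among the 12742 protein-coding genes with a mean of at least 0.1 FPKM, which are called the tested genes here, FAM13A stood at the 51.2th, 36.0th and 62.5th percentile of level in LW63, LW70 and LW119. In LW82, LW88 and LW90 it stood at the 87.1th, 83.0th and 93.9th percentile. FAM13A thus stood near the middle of the tested genes in S-H muscle and well above it in S-L muscle.

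**Figure D1:**
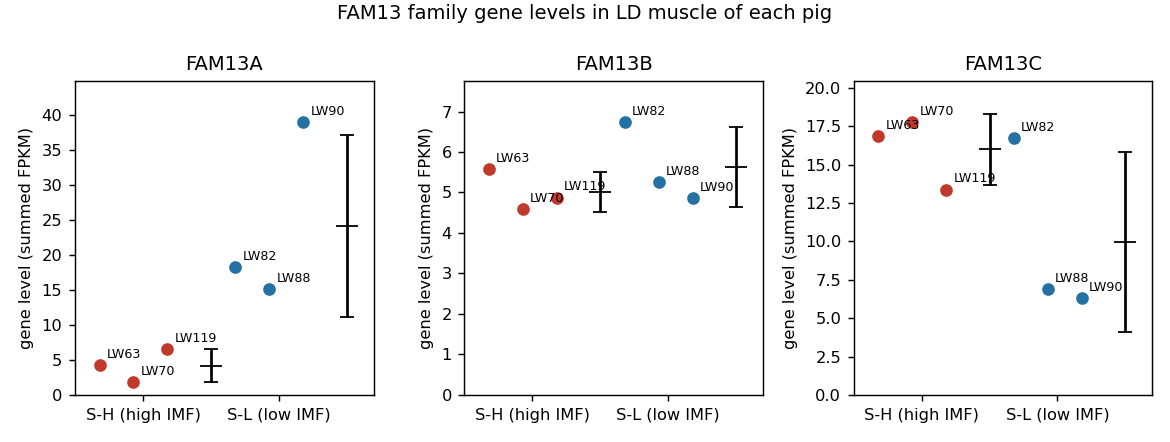
Gene level in summed FPKM (vertical axis, from 0) of FAM13A, FAM13B and FAM13C in each pig, with S-H pigs in red, S-L pigs in blue, and the mean with its SD over 3 pigs in black. FAM13A lies between 1.86 and 6.48 FPKM in S-H and between 15.1 and 38.9 FPKM in S-L, while the groups overlap for FAM13B and FAM13C.

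Most of the FAM13A level came from transcripts that StringTie had assembled from the reads, not from the Ensembl models. Of the 22 transcripts, 3 are Ensembl transcripts (FAM13A-201, FAM13A-202 and FAM13A-203) and 19 were assembled. The assembled transcripts summed to 2.35, 1.24 and 4.98 FPKM in LW63, LW70 and LW119 and to 16.6, 12.5 and 35.0 FPKM in LW82, LW88 and LW90. They made up 66.6% ± 10.4 (SD, n = 3) of the gene sum in S-H pigs against 87.9% ± 4.45 (SD, n = 3) in S-L. The transcripts fall into 5 groups by their coordinates, and since the table gives no strand, their ends are called lower and upper by position and not start and end.

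The full-span group holds FAM13A-201 and FAM13A-202, which both run from 130021641 to 130325308, and FAM13A-202 is listed at 0 in all 6 pigs. FAM13A-201 had 0.757 FPKM in LW63, 0.614 FPKM in LW70 and 1.5 FPKM in LW119, against 1.65 FPKM in LW82, 2.52 FPKM in LW88 and 3.97 FPKM in LW90. The groups did not overlap for this transcript, but LW119 and LW82 lay close together, 1.10-fold apart. The mean was 0.957 ± 0.476 FPKM (SD, n = 3) among S-H pigs against 2.71 ± 1.17 FPKM (SD, n = 3) among S-L pigs, a 2.83-fold higher mean in S-L.

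The next 9 transcripts share the lower end 130221775, inside the gene, and stop at upper ends between 130256232 and 130293690. Together they had 1.08 FPKM in LW63, 0.717 FPKM in LW70 and 3.67 FPKM in LW119, and 13.5 FPKM in LW82, 6.90 FPKM in LW88 and 20.6 FPKM in LW90. Every S-L pig lay above every S-H pig, and the mean was 7.5-fold higher in S-L (1.82 ± 1.61 against 13.7 ± 6.88 FPKM, SD, n = 3 each). Without LW119, the S-H pig with the most of them, the ratio was 15.2-fold, and without LW90 it was 5.58-fold. These short transcripts held 59.4% of the difference in mean FPKM between the groups.

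A further 5 transcripts share the upper end 130330861, which lies beyond the upper end of FAM13A-201, and have lower ends between 130308063 and 130318574. Their sum was 1.23 FPKM in LW63, 0.503 FPKM in LW70 and 0.908 FPKM in LW119, and 2.71 FPKM in LW82, 4.44 FPKM in LW88 and 13.0 FPKM in LW90. The groups did not overlap here either, and the mean was 7.61-fold higher in S-L, or 4.05-fold without LW90. This group held 29.2% of the difference in mean FPKM, while FAM13A-201 held 8.80%. Both of these sets thus differed by a larger ratio of means than the transcript over the full span, also with any 1 pig left out.

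The 2 remaining groups were weak. The 4 long transcripts with the lower end 130221775 had between 0.0237 and 1.13 FPKM in S-H and between 0.473 and 1.2 FPKM in S-L, with overlap, because FAM13A-203 had 1.09 FPKM in LW63 alone, 0.0838 FPKM in LW88 with 0 listed for the other 4. Of these, 3 assembled transcripts reach beyond 130346214, the lower end of the neighbouring gene HERC3. Reads there could have been shared between both genes if these lie on the same strand. The strands are not given, and this was not tested. The 2 transcripts in the middle, with the upper end 130293690, summed to at most 0.524 FPKM in any pig.

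**Figure D2:**
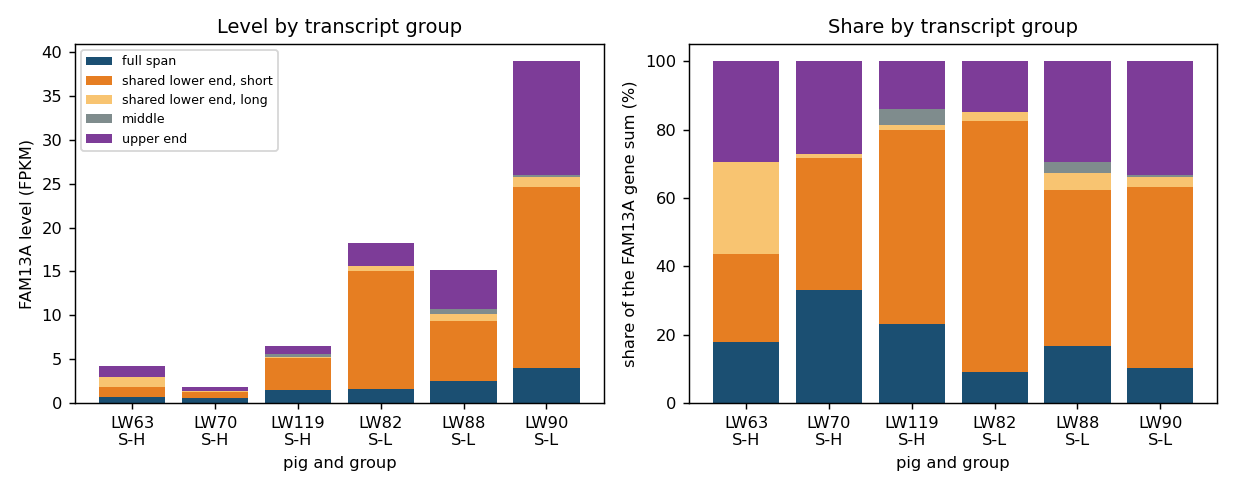
FAM13A level in FPKM (left) and the share of the FAM13A gene sum in percent (right) held by the 5 coordinate groups of transcripts in each pig, as stacked bars from 0. The full-span transcript FAM13A-201 (dark blue) takes 18.0% to 33.1% of the sum in S-H and 9.0% to 16.7% in S-L, and the 9 short transcripts with a shared lower end (orange) form the largest part in 5 of the 6 pigs.

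The share of FAM13A-201 in the gene sum was 18.0% in LW63, 33.1% in LW70 and 23.2% in LW119, and 9.0% in LW82, 16.7% in LW88 and 10.2% in LW90. The ranges did not overlap, with a mean of 24.7% ± 7.64 (SD, n = 3) among S-H pigs against 12% ± 4.13 (SD, n = 3) among S-L pigs. The share of the short transcripts overlapped between the groups, at 25.6% to 56.7% in S-H and 45.6% to 73.6% in S-L. The share of the 5 transcripts with the shared upper end also overlapped, at 14% to 29.4% in S-H and 14.8% to 33.3% in S-L. These shares come from the same values that chose FAM13A and are given without a test.

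Among single transcripts, TCONS_00261558, one of the short set, had the highest mean. It had 0.0581 FPKM in LW63, 0.0912 FPKM in LW70 and 1.80 FPKM in LW119, against 6.54 FPKM in LW82, 2.15 FPKM in LW88 and 6.02 FPKM in LW90. LW119 thus came close to LW88, while the other S-H pigs were near 0. TCONS_00261560, with the same lower end, was at 0.139 FPKM in LW63, was listed at 0 in LW70 and LW119, and had 2.54 FPKM in LW82, 0.439 FPKM in LW88 and 6.4 FPKM in LW90. TCONS_00261566 had 0, 0.161 and 0.366 FPKM in LW63, LW70 and LW119 and 1.30, 1.67 and 2.13 FPKM in LW82, LW88 and LW90. The groups did not overlap. TCONS_00261561 differed least of the short transcripts that reached the minimum mean, at 0.789, 0.308 and 0.887 FPKM in LW63, LW70 and LW119 against 0.918, 0.689 and 1.64 FPKM in LW82, LW88 and LW90, and its groups overlapped.

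At the shared upper end, TCONS_00261588 was the strongest transcript, with 0.710, 0.259 and 0.556 FPKM in LW63, LW70 and LW119 and 1.24, 2.13 and 4.78 FPKM in LW82, LW88 and LW90. TCONS_00261590 showed the same order of groups, at 0.473, 0.200 and 0.283 FPKM in the S-H pigs and 0.945, 1.08 and 4.28 FPKM in the S-L pigs. All 5 transcripts of this set were lower in all S-H pigs than in any S-L pig. This order was found in 3.31% of all tested transcripts. FAM13A was chosen on this contrast, so the order is only described. LW90 was the highest pig in 4 of the 5 transcripts. The exception was TCONS_00261589, which had 0.377 FPKM in LW82, 0.771 FPKM in LW88 and 0.632 FPKM in LW90. TCONS_00261589 and TCONS_00261592 were listed at 0 in all S-H pigs. TCONS_00261592 had 0.0131, 0.0744 and 2.16 FPKM in LW82, LW88 and LW90, and so reached the minimum mean only through LW90.

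Over all 22 transcripts of FAM13A, 13 were lower in all S-H pigs than in any S-L pig, none was higher in every S-H pig, and 4 were listed at 0 in the 3 S-H pigs but not in S-L. A mean of at least 0.1 FPKM was reached by 19 of the 22, some of them only through the S-L pigs. Among all 40336 transcripts with that mean, 3.31% had that order of pigs and 40.6% had a negative difference, against 18 of the 19 here. FAM13A was chosen on this contrast and its transcripts share reads, so nothing is read from the count. LW90 was the highest pig in 13 of the 21 transcripts above 0, and LW119 was the highest S-H pig in 11 of the 17 that were above 0 in S-H. The number of FAM13A transcripts above 0 was 14 in LW63, 11 in LW70, 14 in LW119, 16 in LW82, 21 in LW88 and 18 in LW90. Division of reads between overlapping transcripts is an estimate, and a 0 for 1 transcript does not show that it was absent.

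**Figure D3:**
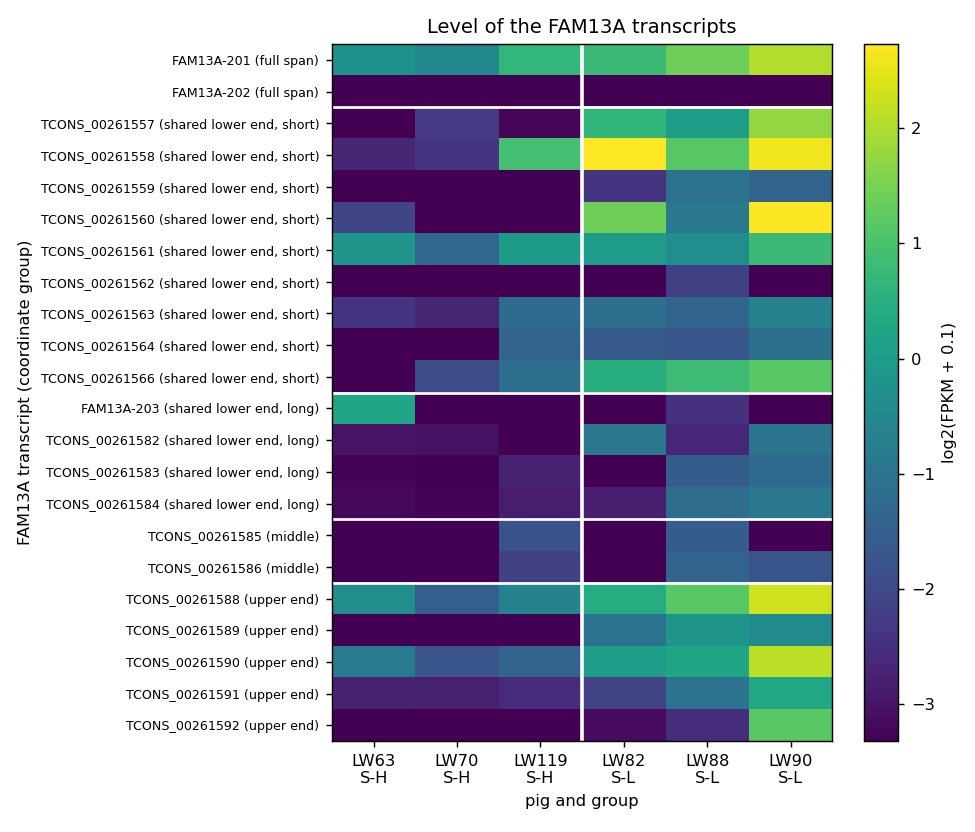
Level of the 22 FAM13A transcripts as log2(FPKM + 0.1) (colour scale) in each pig (columns, S-H left and S-L right), with white lines between the coordinate groups. The S-L columns are brighter for most transcripts, and the exception is FAM13A-203, which is brightest in LW63 at 1.09 FPKM.

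FAM13B (ENSSSCG00000029125, chromosome 2, 139958482 to 140073663), a close relative of FAM13A, was nearly level across the pigs. It had 5.57 FPKM in LW63, 4.59 FPKM in LW70 and 4.87 FPKM in LW119, and 6.74 FPKM in LW82, 5.26 FPKM in LW88 and 4.87 FPKM in LW90. The groups overlapped, with a mean of 5.01 ± 0.504 FPKM (SD, n = 3) among S-H pigs against 5.62 ± 0.988 FPKM (SD, n = 3) among S-L pigs. The log2 fold change, S-H minus S-L, was -0.15 (95% interval from -0.71 to 0.40, limma p of 0.550, adjusted p of 0.870). The interval holds lower as well as higher levels in S-H, so equal levels are not shown.

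FAM13B-206 carried most of FAM13B, between 62.2% and 71.2% of the gene sum in all 6 pigs. It had 3.97, 2.94 and 3.29 FPKM in LW63, LW70 and LW119 and 4.75, 3.36 and 3.03 FPKM in LW82, LW88 and LW90. FAM13B-205 followed with 1.0 to 1.17 FPKM in S-H and 1.23 to 1.32 FPKM in S-L. The groups did not overlap for FAM13B-205, but its log2 fold change was -0.19 with a limma p of 0.549 (0.919 adjusted over all transcripts). FAM13B-203 and FAM13B-204 were listed at 0 in all 6 pigs, and 4 of the 7 transcripts reached the minimum mean for a test. None of the 4 passed a p below 0.01 before adjustment together with a log2 fold change of 1 or more in size, which 1.25% of all tested transcripts did (0.496% lower and 0.751% higher in S-H), and none had an unadjusted p below 0.05.

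FAM13C (ENSSSCG00000010209, chromosome 14, 62565138 to 62925849), the remaining family member, had the higher mean in S-H, in the opposite direction to FAM13A. It had 16.8 FPKM in LW63, 17.8 FPKM in LW70 and 13.4 FPKM in LW119, and 16.7 FPKM in LW82, 6.91 FPKM in LW88 and 6.30 FPKM in LW90. LW82 lay with the S-H pigs, and the other S-L pigs lay well below all of them. The mean was 16.0 ± 2.32 FPKM (SD, n = 3) among S-H pigs against 9.98 ± 5.85 FPKM (SD, n = 3) among S-L pigs. The log2 fold change was 0.81 (95% interval from 0.0021 to 1.62, limma p of 0.0495, adjusted p of 0.608), and FAM13C did not pass these thresholds. Without LW82 it passed them, with a log2 fold change of 1.25 (limma p of 0.00178, adjusted p of 0.331). With libraries scaled by median-ratio size factors the log2 fold change was 0.59 (limma p of 0.120, adjusted p of 0.798). Without LW90 it was 0.56 (limma p of 0.181).

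FAM13C had 5 transcripts, all of them Ensembl models. FAM13C-202 was the strongest over the 6 pigs, at 6.99, 9.24 and 7.08 FPKM in LW63, LW70 and LW119 and 6.48, 4.02 and 3.8 FPKM in LW82, LW88 and LW90. All S-H pigs were above all S-L pigs, by a narrow margin over LW82, an order that 8.0% of all tested transcripts had, and the log2 fold change was 0.72 (limma p of 0.0533, adjusted p of 0.848). FAM13C-201 separated the S-L pigs most, with 7.51 FPKM in LW82 against 1.0 FPKM in LW88 and 1.36 FPKM in LW90, while the S-H pigs had 5.96, 5.14 and 4.31 FPKM. Its share of the FAM13C sum was 44.9% in LW82, 14.5% in LW88 and 21.6% in LW90, and 28.9% to 35.4% in S-H. FAM13C-203 had 1.25, 1.18 and 1.98 FPKM in LW63, LW70 and LW119 and 1.13, 0.617 and 0.299 FPKM in LW82, LW88 and LW90. It too was higher in all S-H pigs, with a log2 fold change of 1.12 (limma p of 0.0669, adjusted p of 0.848). FAM13C-204 overlapped between the groups, with 0 listed for LW119 and LW88. FAM13C-205 went the other way, at 1.28 FPKM in LW88 with 0 listed for all other pigs. None of the 5 transcripts passed the thresholds of limma or had an unadjusted p below 0.05. Without LW82, FAM13C-201 passed with a log2 fold change of 2.03 (limma p of 0.00146, adjusted p of 0.253).

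Because FPKM is given per length, the 3 genes can be ranked within a pig, but only FAM13A has assembled transcripts in its sum. On the Ensembl transcripts alone, FAM13A was below FAM13B and below FAM13C in all 6 pigs, so the order that follows rests on the assembled transcripts. FAM13C was above FAM13B in 6 of 6 pigs, and FAM13A was above FAM13C in 3 pigs, those of S-L. In S-H the order was FAM13C, then FAM13B and FAM13A, whose ranges overlapped. In S-L, FAM13A came first with a range that overlapped the one of FAM13C in LW82, FAM13B came last, and the ranges of FAM13C and FAM13B also overlapped. The ratio of FAM13A to FAM13B, which is free of any scaling between libraries, was 0.754 in LW63, 0.404 in LW70 and 1.33 in LW119, and 2.71 in LW82, 2.87 in LW88 and 8.0 in LW90. On the Ensembl transcripts alone this ratio was 0.332, 0.134 and 0.308 in LW63, LW70 and LW119 and 0.244, 0.495 and 0.815 in LW82, LW88 and LW90, with overlap. With all transcripts, FAM13A made up 7.67% to 26.2% of the summed FPKM of the family in S-H and 43.8% to 77.7% in S-L, and on the Ensembl transcripts alone 2.67% to 7.62% and 6.56% to 26.2%. The family sum itself was 24.2 to 26.6 FPKM in S-H and 27.3 to 50.1 FPKM in S-L.

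With limma on log2(FPKM + 0.1), tested at a p below 0.01 and a log2 fold change of 1 or more in size, 24 of the 12742 tested genes passed in the direction lower in S-H (0.188%) and 149 in the direction higher in S-H (1.17%). None had an adjusted p below 0.05, while 1039 genes were below 0.05 before adjustment. Across the alternatives the number below 0.05 after adjustment ran from 0 to 9, and 9 was reached when each gene was read from its strongest transcript. FAM13A had the 5th most negative difference of the tested genes, as its choice implies, and 25.9% of them had a negative difference. The median difference of all tested genes was 0.21 on the log2 scale, and relative to this median FAM13A was at -2.76, FAM13B at -0.37 and FAM13C at 0.60. With median-ratio size factors this median was 0.01 and the calls split into 55 lower and 84 higher.

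**Figure D4:**
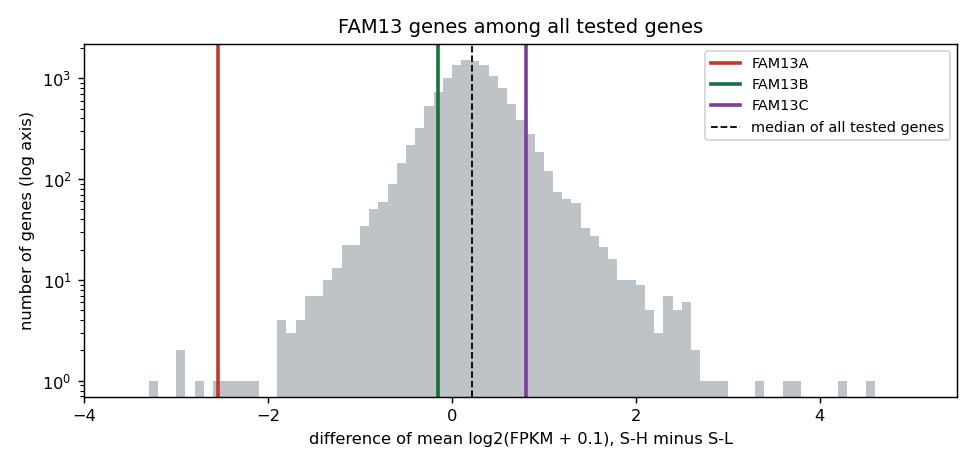
Number of tested genes (log axis) by the difference of the mean log2(FPKM + 0.1), S-H minus S-L, in steps of 0.1, with the 3 FAM13 genes as coloured lines and the median of all tested genes as a dashed line at 0.21. FAM13A lies in the sparse lower tail at -2.54, and FAM13B at -0.15 and FAM13C at 0.81 lie within the body of the distribution.

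Pathways around the known partners of FAM13A were looked at by lists written from general knowledge, called partner lists here, though their genes are not all partners of FAM13A. In the list of insulin receptor substrate signalling, 0 of 27 genes passed (limma), where 1.36% of all tested genes did in either direction. In this list 1 gene had an unadjusted p below 0.05, and the median log2 difference was -0.04 against 0.21 over all tested genes. IRS1 itself varied within both groups, at 6.87, 7.29 and 3.74 FPKM in S-H and 9.16, 2.65 and 10.8 FPKM in S-L.

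Of all tested genes, 1.17% passed as higher in S-H and 0.188% as lower, and 1 call in a list is too few to set against these shares. In the list of Wnt, beta-catenin and protein phosphatase 2A genes, 1 of 39 passed as higher in S-H and 0 as lower, with a median of 0.11. The gene was SFRP1, which encodes a secreted binder of Wnt proteins, at 18.3, 3.74 and 7.20 FPKM in LW63, LW70 and LW119 and 2.44, 3.34 and 1.78 FPKM in LW82, LW88 and LW90 (log2 fold change 1.66, limma p of 0.00810, adjusted p of 0.580). Its call was lost when LW63, LW119, LW82 or LW90 was left out, with log2 fold changes of 1.06, 1.73, 1.66 and 1.44, and with median-ratio size factors (1.44), and SFRP1 passed in 6 of the 19 alternatives. CTNNB1, which encodes beta-catenin, was higher in every S-H pig (71.4, 56.6 and 59.2 FPKM) than in every S-L pig (44.2, 55.8 and 41.1 FPKM). The margin between LW70 and LW88 was narrow, and 13.1% of all tested genes had this order. The log2 fold change of CTNNB1 was 0.41 and did not pass (limma p of 0.110, adjusted p of 0.643). PPP2CA, the catalytic subunit of protein phosphatase 2A, had 25.0 ± 1.7 FPKM (SD, n = 3) among S-H pigs against 30.3 ± 4.28 FPKM (SD, n = 3) among S-L pigs, and the groups overlapped.

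In the list of fatty acid oxidation with SIRT1 and the AMP-activated kinase, 0 of 28 genes passed as higher in S-H, with a median of 0.20. Only 1 gene passed as lower, as 0.188% of all tested genes did, and nothing about the list is read from it. That gene was PPARGC1A, the coactivator PGC-1 alpha that raises mitochondrial gene expression. It had 10.0 FPKM in LW63, 22.4 FPKM in LW70 and 15.1 FPKM in LW119, and 25.5 FPKM in LW82, 76.0 FPKM in LW88 and 43.7 FPKM in LW90 (log2 fold change -1.54, limma p of 0.00404, adjusted p of 0.540). The call was lost without LW63 (-1.25), LW88 (-1.15) or LW90 (-1.54), and with the transcript of highest mean (-1.54). SIRT1 had 3.48 ± 0.773 FPKM in S-H and 3.43 ± 0.493 FPKM in S-L (SD, n = 3 each). The carnitine palmitoyltransferases, which bring fatty acids into mitochondria, overlapped between the groups as well, with CPT1A at 6.46 ± 0.373 against 5.48 ± 0.784 FPKM and the muscle form CPT1B at 34.7 ± 13.5 against 26.9 ± 4.41 FPKM (S-H against S-L, SD, n = 3 each). In the list of 14-3-3 proteins, 0 of 4 tested genes passed (limma) and 0 had an unadjusted p below 0.05, with a median of 0.37. Of all tested genes, 1.36% passed in either direction.

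The genes beside FAM13A were taken by position. Of 17 genes with a symbol within 1 Mb of its outermost transcripts, 14 were tested. As higher in S-H 1 passed (limma), where 1.17% of all tested genes did, and 0 passed as lower, where 0.188% did. The median log2 difference was 0.30, against 0.21 over all tested genes. HERC3, whose span (130346214 to 130527451) the longest assembled FAM13A transcripts enter, had 9.0, 10.8 and 8.90 FPKM in LW63, LW70 and LW119 and 9.22, 8.40 and 7.39 FPKM in LW82, LW88 and LW90. NAP1L5, an intronless gene at 130364566 to 130365464, stayed between 0.257 and 0.710 FPKM in all 6 pigs. TIGD2 on the lower side had 1.7 ± 0.248 FPKM in S-H and 1.59 ± 0.578 FPKM in S-L (SD, n = 3 each), with overlap.

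Farther off, GPRIN3 had 1.46 ± 0.301 FPKM in S-H and 0.830 ± 0.315 FPKM in S-L (limma p of 0.0477, adjusted p of 0.608). HERC6, a ubiquitin ligase of the interferon response, had 16.0, 19.5 and 12 FPKM in LW63, LW70 and LW119 and 9.45, 10.2 and 5.49 FPKM in LW82, LW88 and LW90 (log2 fold change 0.93, limma p of 0.0124, adjusted p of 0.580). All S-H pigs were above all S-L pigs for HERC6, an order that 13.1% of all tested genes had, and HERC6 did not pass the thresholds. It passed in 3 of the 19 alternatives, 2 of them with 1 pig left out. HERC5, PPM1K, ABCG2, PKD2, DMP1, DSPP and MMRN1 overlapped between the groups and had differences from -0.35 (HERC5) to 0.74 (PPM1K). SPP1, which encodes osteopontin, was the gene that passed, with 96.8, 19.0 and 123.1 FPKM in LW63, LW70 and LW119 and 1.65, 15.9 and 0.556 FPKM in LW82, LW88 and LW90 (log2 fold change 4.53, limma p of 0.00145, adjusted p of 0.464), and it passed in 18 of the 19 alternatives. IBSP and MEPE were listed at 0 in all 6 pigs, and U6 was above 0 in LW82 alone, at 0.153 FPKM.

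**Figure D5:**
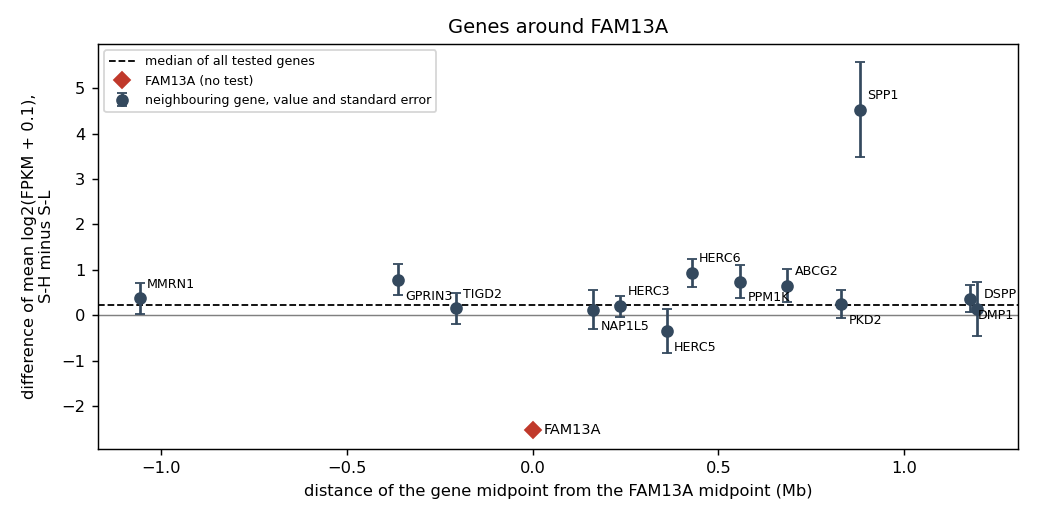
Difference of the mean log2(FPKM + 0.1), S-H minus S-L, with the standard error from limma, for 13 of the 14 tested neighbours of FAM13A (dark points) against the distance of their midpoint from that of FAM13A in Mb, and FAM13A as a red diamond without a test. FAM13A lies at -2.54, while the neighbours shown lie between -0.35 and 0.93, apart from SPP1 at 4.53.

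The authors named 3 lncRNAs as antisense to FAM13A, and all were weak. TCONS_00269291 (130321687 to 130324820) was listed at 0 in LW63 and had 0.0895 FPKM in LW70, 0.234 FPKM in LW119, 0.110 FPKM in LW82, 0.842 FPKM in LW88 and 2.01 FPKM in LW90. It was highest in LW90, the pig with the most FAM13A, but the groups overlapped. TCONS_00269292, at nearly the same place, had 0.292 FPKM in LW63 and 0.742 FPKM in LW82 with 0 listed for the other 4. TCONS_00269288 (130035332 to 130066472) had 0.566 FPKM in LW82 and 0.18 FPKM in LW88 and was listed at 0 elsewhere.

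The pattern of FAM13A over the 6 pigs was compared with that of each other tested gene by Pearson's r of log2(FPKM + 0.1), as a description over 6 points that share their libraries and their group difference. Of 12741 genes, 15 had an r above 0.95 and 75 an r below the same value with a negative sign. The 5 genes with a symbol most like FAM13A were ZNF462 (0.981), MOSPD2 (0.979), NFATC2 (0.978), SIK1 (0.98) and MAST4 (0.973). NFATC2 encodes a transcription factor switched on by calcineurin and SIK1 a salt-inducible kinase. SIK1 had 5.48, 4.76 and 8.86 FPKM in LW63, LW70 and LW119 and 11.2, 10.3 and 16.0 FPKM in LW82, LW88 and LW90, the same order of pigs as FAM13A. MAST4, a serine/threonine kinase, had 6.89, 5.49 and 13.0 FPKM in S-H and 16.9, 14.8 and 28.0 FPKM in S-L. The 5 genes with the most opposite pattern were KARS1, HES6, HDGFL2, DCLK2 and LXN, with r from -0.993 to -0.988. KARS1, a lysyl-tRNA synthetase, had 116.6, 133.4 and 107.9 FPKM in LW63, LW70 and LW119 and 84.7, 93.7 and 78.4 FPKM in LW82, LW88 and LW90.

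The labelled tissue was checked by marker lists. The skeletal muscle fibre genes summed to 10820 to 16114 FPKM in S-H and 11828 to 21040 FPKM in S-L, and none of the 11 genes in the table was at 0 in all pigs. Of the 10 tested, 6 had a negative difference, as 25.9% of all tested genes did, and 4 a positive one. Their median was -0.42, and 0 passed in either direction (limma). Without 1 pig the median ran from -0.52 to -0.23, and without LW82 1 gene passed as lower. In every S-H pig 2 of the 10 were lower than in any S-L pig and 1 was higher. These orders were found in 1.7% and 13.1% of all tested genes. CASQ1, the calcium-binding protein of the sarcoplasmic reticulum, was the only 1 with an unadjusted p below 0.05. It was lower in all S-H pigs, at 81.5 to 125.9 FPKM against 165.5 to 299.8 FPKM (log2 difference -0.96, limma p of 0.0108, adjusted p of 0.580). For adipocyte markers, all 13 tested genes had a positive difference (median 1.11), 6 passed as higher in S-H, where 1.17% of all tested genes did, and 0 as lower (limma), and the sum was 812 to 1956 FPKM in S-H against 631 to 874 FPKM in S-L. Without LW63 or without LW90, 3 of them passed, and without LW119, 9 did. None of the adipocyte genes was at 0 in all pigs, and ADIPOQ was 96.3 to 365.9 FPKM in S-H and 23.9 to 67.2 FPKM in S-L. Of the endothelial markers, 1 of 10 passed as higher, with sums of 152.8 to 168.9 FPKM in S-H and 97.8 to 139.0 FPKM in S-L, and their median difference of 0.21 was that of all tested genes. The macrophage list had 0 of 9 passing, with sums of 48.1 to 112.7 against 51.4 to 89.8 FPKM. The fibro-adipogenic list had 0 of 9 passing, with sums of 1030 to 1591 against 976 to 1341 FPKM, and the Schwann and nerve list had 0 of 6, with sums of 20.7 to 41.0 against 30.9 to 61.0 FPKM. All 6 tested Schwann and nerve genes had a negative difference, with a median of -0.36 that ran from -0.69 to -0.05 without 1 pig. As lower, 1 passed without LW119 and 1 with median-ratio size factors. The adipocyte markers thus differed in the opposite direction to FAM13A, and the skeletal muscle and the Schwann and nerve markers had medians in its direction. The part of these cells in the difference of FAM13A was not tested.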

How the data were processed

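LD muscle of 6 Laiwu pigs, 3 S-H and 3 S-L, was sequenced with 1 library per pig. As the study describes, the authors filtered the reads, aligned them with HISAT2 to Sscrofa11.1 and assembled and quantified transcripts with StringTie. Tool versions are not given in the sources used here. The authors deposited FPKM for 83119 transcripts per pig. The same columns hold 21104 symbol-less Ensembl transcripts that were taken to be in TPM. This unit was inferred from the deposited values and is not stated in the sources used here. These transcripts were multiplied by 1 factor per pig, 0.639 to 0.847, which by its construction sets the whole library to a TPM sum of 1000000. The FAM13 rows are in FPKM and were not changed by this step. Libraries were not scaled to each other.

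Gene levels were sums of the FPKM over transcripts. Gene types were taken from RefSeq (same assembly). For 13901 genes the symbol matched, and for 4666 the spans overlapped reciprocally by 50% or more. Protein-coding genes, and separately all transcripts, averaging 0.1 FPKM or more were fitted on log2(FPKM + 0.1) with limma 3.58.1 (variance trend, S-H against S-L) in R 4.3.3, with Benjamini-Hochberg adjustment over all tested features. A gene passed at a p below 0.01 before adjustment with a log2 fold change of 1 or more in size, as in the study, whose own test needs counts that the table does not hold. A fold change on this scale understates the change of weak genes. With 3 pigs a group, each p value rests on a spread between these pigs that limma draws toward the trend over all tested features. A p value is thus not a measure of the spread of that feature alone. The fit was tested on simulated data. Summaries used Python 3.11.15, numpy 2.4.6 and pandas 2.3.3.

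Named were the FAM13 genes with their transcripts, list members that passed, fixed partners (IRS1, CTNNB1, PPP2CA, SIRT1, CPT1A and CPT1B), neighbours within 1 Mb, and the 5 genes most and least like FAM13A. The members and lists were chosen with earlier results of these data known. The alternatives were other pseudocounts, minimum means, scalings, variance models, gene summaries and gene sets, the values as deposited, pooled transcript shares and each pig left out in turn. The sum of Ensembl transcripts alone was added after seeing the data. No sequences were used here, and 1 neighbouring gene and 1 partner list are not reported here.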

Additional observations from a re-analysis of the deposited data

How the results depend on the processing

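The difference of FAM13A kept its sign in all 19 alternatives, from -3.54 with the transcript of highest mean to -1.04 with the Ensembl transcripts alone, an alternative chosen after seeing the data. These were the 2 alternatives that moved it by more than the spread between pigs, and in the second the groups overlapped. Without 1 pig it lay between -2.93 and -2.06. The share of FAM13A-201 was 12.8 percentage points higher in S-H, 11.7 with pooled shares and 8.64 to 16.1 without 1 pig. FAM13B stayed between -0.37 and -0.02 and passed in no alternative (-0.25 to -0.02 without 1 pig). FAM13C stayed positive (0.56 to 1.25 without 1 pig) and passed only without LW82. The number of genes lower in S-H was 24, and it was 13 with a pseudocount of 1, 14 with TPM, 55 with median-ratio size factors, 61 with quantile normalization, 52 with all annotated genes and 19 to 54 without 1 pig, the most without LW119. Partner list genes that passed numbered 2, and 1 with median-ratio size factors and 0 to 2 without 1 pig. FAM13B and FAM13C transcripts that passed numbered 0, and 0 to 1 without 1 pig. No paired analysis was possible because no pig belongs to both groups and the labels carry no replicate numbers. FPKM without counts sets no limit on counting error for weak transcripts.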
